A study of Mus musculus with 44 samples.

Results

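Back skin after 2 weeks of bleomycin was compared with back skin after saline, gene by gene and by pathway and cell type. The members are the samples that the labels place in these groups, 10 mice given bleomycin for 2 weeks and 10 mice given saline, which are 20 of the 44 mice of the series. The remaining mice received bleomycin for 4 weeks (10 mice) or recovered for 6 weeks (6 mice) or 10 weeks (8 mice) after 4 weeks of bleomycin. All were female wild type C57Bl/6 mice, 8 weeks old at the start, and the injections were daily, subcutaneous and 100 µL in volume, with bleomycin at 1 U/mL. The time at which the saline mice were killed is not given, so treatment and time since the first injection cannot be told apart. The values are read counts per gene divided by 1 size factor per mouse (normalized counts). A biopsy of back skin mixes epidermis, dermis, fat and the thin muscle below it.

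Bleomycin is a drug that cuts DNA strands, and repeated injection into the skin of mice is a common model of the skin fibrosis of systemic sclerosis. Injury of this kind is known to draw neutrophils and monocytes from the blood under the direction of chemokines, before fibroblasts deposit new collagen. Skin also holds layers that each carry their own gene programs, among them the epidermis, the hair follicle with its sebaceous gland, the dermal fibroblasts, the white fat of the dermis and the panniculus muscle. Fewer cells of a type and less RNA per cell therefore cannot be told apart in any of the results below.

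The reads recovered per mouse ranged from 8641894 to 12016214 with saline and from 9283128 to 11530560 at 2 weeks. Each mouse held the keratins of the epidermis: Krt5, of the basal layer, ranged from 39969 to 74706 over both groups together, and Krt10, of the layers above, from 30515 to 95960.1. Muscle was present in every biopsy too, since the summed level of 16 fast-twitch muscle genes ranged from 124229 to 416449.8 with saline and from 182596 to 447399 at 2 weeks. A pair of libraries stood apart from their groups. Saline mouse 1 had a median correlation of 0.9421 with the rest of its group and 2-week mouse 2 one of 0.9378, against 0.9493 to 0.9785 for the others. Saline mouse 1 had the highest summed level of 22 hair genes, and 2-week mouse 2 had the highest summed levels of the acute-phase, CC chemokine, neutrophil, macrophage and lysosome lists. Counts were repeated without both mice and are given where they moved by more than 1.5 times.

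Of 17037 genes tested, 1585 (9.3%) were called higher and 1266 (7.43%) lower at 2 weeks, with a fold change above 1.5 and an adjusted p below 0.05 by limma on log2(normalized count + 1). The median log2 fold change of all tested genes was 0.003. In 586 genes (3.44%) every 2-week mouse lay above every saline mouse, and in 227 (1.33%) every 2-week mouse lay below. Such a gap and a call came together in 708 genes (4.16%). These shares are the background for the counts of each gene list. The lists hold genes of a pathway or markers of a cell type, and a gene that several lists share counts under each. Values of single genes are the lowest, the median and the highest normalized count of the 10 mice of a group.

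**Figure D1:**
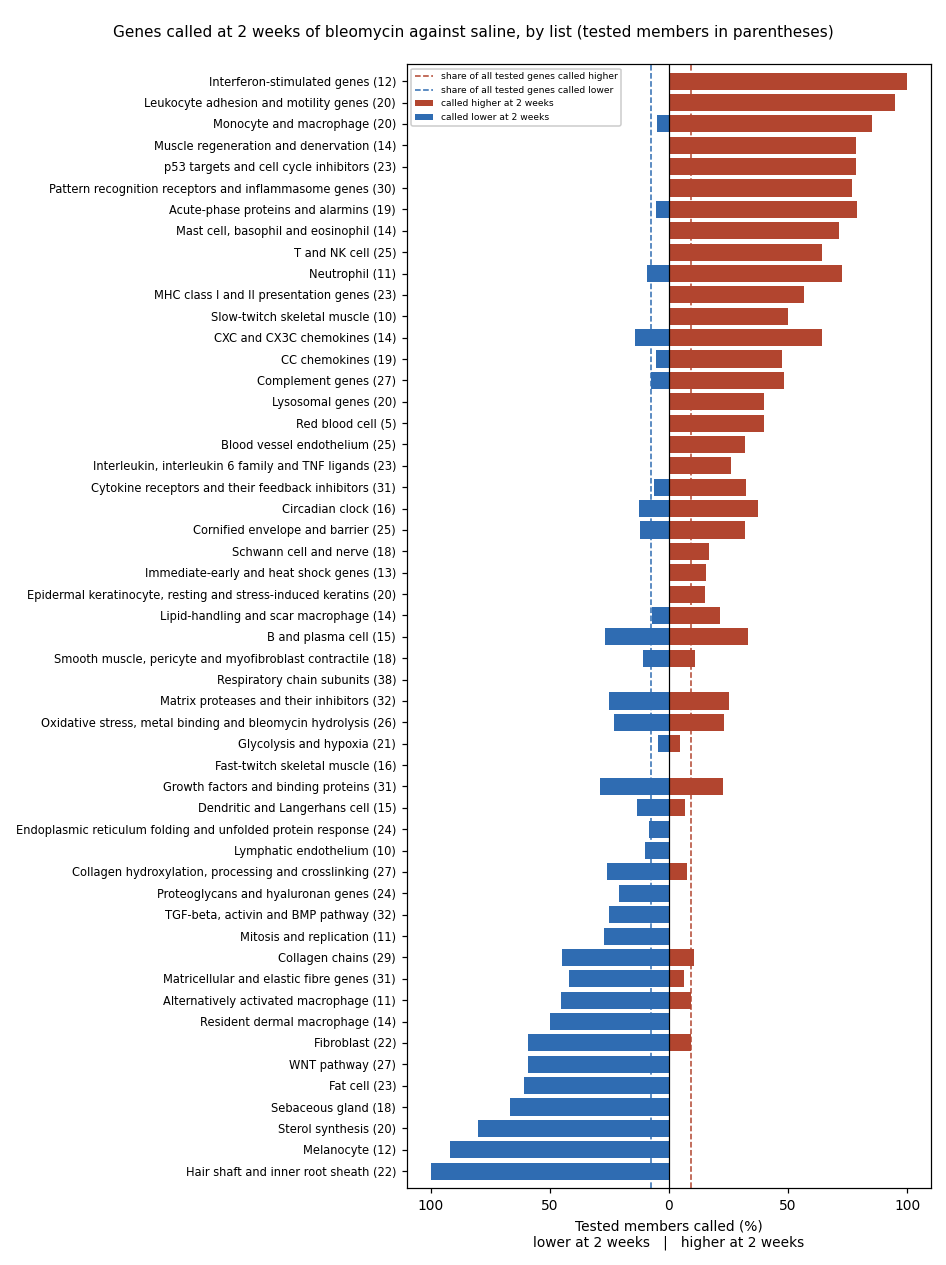
Share of the tested members of each gene list that was called higher (bars to the right) or lower (bars to the left) at 2 weeks of bleomycin against saline, in percent, with the number of tested members in parentheses and the shares over all tested genes as dashed lines (9.3% higher, 7.43% lower). Lists of interferon-stimulated genes, leukocytes, acute-phase proteins, p53 targets and muscle regeneration lie at the top, and lists of hair, pigment cells, sterol synthesis, sebaceous gland, fat, WNT pathway and fibroblasts at the bottom.

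The promoters of some genes at both ends of this range are shown first, with the short motifs found in them. The windows are those of RefSeq on GRCm38.p6, from 250 bases before to 50 bases after each start, and 12 motifs were searched on both strands after the values were known. The letters TTGCNNAA, which C/EBP factors can bind, were present in the window of 11 of the 16 acute-phase genes with a window, against 12.2% of all genes. GGGNNTTTC, the first 9 bases of a site that NF-kB can bind, were present for 4 of 12 CXC and CX3C chemokine genes (Cxcl1, Cxcl2, Cxcl3 and Cxcl9) and 4 of 16 acute-phase genes, against 5.06% of all genes. CCAATCA, the box that NF-Y can bind, was present for 9 of 13 sterol synthesis genes, against 9% of all genes, but also for 12 of 18 genes of antigen presentation, 7 of 14 clock genes, 2 of 12 CXC and CX3C chemokine genes and 0 of 16 acute-phase genes. It was thus found in lists that fell, rose or were mixed. The sterol element TCACNCCAC was present for 1 of the 13 sterol genes (Hmgcs1) and for 1.44% of all genes. GAAANNGAA, from the interferon-stimulated element, was present for 7 of 8 interferon-stimulated genes, against 9.76% of all genes. The E-box CACGTG was present for 5 of 14 clock genes and 4 of 13 sterol genes, against 8.09% of all genes. The TCF/LEF site CTTTGNTC was present for 3 of 13 sterol genes, against 6.07%, and the TEAD site GGAATG for 3 of 12 CXC and CX3C chemokine genes, against 16.6%. The D-box TTATGTAA was present for 1 of 14 clock genes and its looser form TTATNTAA, which holds it, for 2, against 1.11% and 4.07%. Neither the serum response element CCATNTTGG (1.91% of all genes) nor the ETS site CAGGAAGT (3.86%) was present for any gene of the 6 lists searched, which were acute-phase, CXC and CX3C chemokine, sterol, interferon-stimulated, antigen presentation and clock genes. Longer forms of some of these had been tried before. A match is a run of letters and not a test of binding. The sequences below run 5′ to 3′ from 250 to 31 bases before the start, and capitals mark the match: TTGCNNAA for Saa3, Lcn2 and S100a9, whose RNA rose, GGGNNTTTC for Cxcl1 and Cxcl2, which rose, and CCAATCA for Idi1 and Lss, which fell. Idi1 and Lss were chosen after their values were seen.
Saa3 (chr7:46715707-46715926, - strand): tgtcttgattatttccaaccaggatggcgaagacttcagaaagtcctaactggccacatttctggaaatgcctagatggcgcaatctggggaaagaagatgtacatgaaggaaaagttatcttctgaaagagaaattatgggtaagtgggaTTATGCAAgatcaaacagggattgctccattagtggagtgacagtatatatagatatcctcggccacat
Lcn2 (chr2:32387770-32387989, - strand): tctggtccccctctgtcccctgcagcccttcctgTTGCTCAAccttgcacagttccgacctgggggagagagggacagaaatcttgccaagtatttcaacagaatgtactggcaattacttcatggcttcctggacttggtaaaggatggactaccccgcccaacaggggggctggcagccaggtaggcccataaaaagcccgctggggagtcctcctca
S100a9 (chr3:90695752-90695971, - strand): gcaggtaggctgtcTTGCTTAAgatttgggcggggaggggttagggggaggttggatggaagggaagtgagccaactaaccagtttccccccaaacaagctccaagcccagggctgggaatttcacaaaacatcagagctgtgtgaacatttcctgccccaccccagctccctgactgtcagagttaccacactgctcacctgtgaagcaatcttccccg
Cxcl1 (chr5:90890995-90891214, + strand): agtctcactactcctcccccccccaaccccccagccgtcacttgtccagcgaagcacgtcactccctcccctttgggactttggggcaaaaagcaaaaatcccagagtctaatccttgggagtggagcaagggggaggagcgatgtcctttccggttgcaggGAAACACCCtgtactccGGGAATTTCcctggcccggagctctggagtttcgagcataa
Cxcl2 (chr5:90903649-90903868, + strand): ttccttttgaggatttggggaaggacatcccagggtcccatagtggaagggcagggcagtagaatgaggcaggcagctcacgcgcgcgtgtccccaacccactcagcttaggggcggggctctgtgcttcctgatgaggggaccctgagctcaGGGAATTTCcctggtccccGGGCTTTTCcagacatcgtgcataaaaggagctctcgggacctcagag
Idi1 (chr13:8885356-8885575, + strand): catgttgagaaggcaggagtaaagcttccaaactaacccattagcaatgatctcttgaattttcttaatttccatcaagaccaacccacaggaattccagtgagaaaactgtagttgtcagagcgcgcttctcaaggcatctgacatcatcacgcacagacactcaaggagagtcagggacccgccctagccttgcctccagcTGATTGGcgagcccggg
Lss (chr10:76531355-76531574, + strand): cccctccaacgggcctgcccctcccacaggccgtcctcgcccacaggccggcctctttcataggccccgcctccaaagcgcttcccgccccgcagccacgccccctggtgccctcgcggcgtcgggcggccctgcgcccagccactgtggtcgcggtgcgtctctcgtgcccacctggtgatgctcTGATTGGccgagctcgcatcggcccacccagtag

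Most genes of a joint monocyte and macrophage list rose, while 7 of 14 markers of the macrophages that reside in the dermis fell. Of 20 monocyte and macrophage genes, 17 rose and 1 fell, with a median log2 fold change of 1.19, and all mice were apart for 10 of them. Ly6c2, a surface protein of classical blood monocytes, had counts of 20.3, 33.2 and 62.9 with saline and of 1575, 2122 and 5774 at 2 weeks. Every 2-week mouse was far above every saline mouse, and the log2 fold change was 6.12 (SE 0.22, limma adjusted p = 1.25e-24). Fcgr1, the high-affinity Fc receptor of monocyte-derived macrophages, went from 58.2, 109 and 137 to 536, 882 and 2602, again with no overlap, a log2 fold change of 3.23 (SE 0.21). Adgre1, which encodes the macrophage antigen F4/80, moved less, with a log2 fold change of 1.30 (SE 0.17), and its groups did not overlap either. The exception that fell was Lyz1, a lysozyme gene close in sequence to Lyz2, at -2.76 (SE 0.25), so that the reads of the pair are uncertain. Csf1r, the receptor for the macrophage growth factor, did not pass the test, with a log2 fold change of 0.36 (SE 0.17). It overlaps the exons of Hmgxb3 on the other strand, and the strand setting of the counting is not given.

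Among the genes of resident dermal macrophages, 0 rose and 7 fell, with a median log2 fold change of -0.72. Cd163, the scavenger receptor for haemoglobin, had counts of 478, 961 and 1828 with saline and of 213, 470.3 and 641 at 2 weeks. The ranges overlapped, with 5 of 10 2-week mice below every saline mouse, and the log2 fold change was -1.31 (SE 0.21, limma adjusted p = 3.06e-06). Cd209f, a lectin of the CD209 family, counted 313, 591 and 888 with saline and 119, 178 and 328 at 2 weeks, with 9 of 10 mice below every saline mouse and a log2 fold change of -1.55 (SE 0.19). Timd4, a receptor for dying cells on long-lived tissue macrophages, fell by 1.67 on the log2 scale from a low level. Folr2, the folate receptor of the same cells, did not pass (-0.21 (SE 0.17)).

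Among 11 genes of alternative macrophage activation, 1 rose and 5 fell, and the members moved far in opposite directions. Retnla, a secreted protein of the resistin family that macrophages make under type 2 cytokines, had counts of 1576, 3444 and 7518 with saline and of 42.6, 176 and 427 at 2 weeks. No 2-week mouse came near the saline range, and the log2 fold change was -4.57 (SE 0.34, limma adjusted p = 1.08e-14). Ccl24, a chemokine for eosinophils, counted 57, 98.1 and 295 with saline and 9.09, 24.4 and 166 at 2 weeks, a log2 fold change of -2.09 (SE 0.33), with 9 of 10 mice below every saline mouse. Chil3, a chitinase-like protein, was the member that rose (6.80 (SE 0.34)). Mrc1, the mannose receptor, did not pass (0.33 (SE 0.14)). Genes of lipid-handling macrophages gave 3 rises and 1 fall among 14, and 10 were not called, with a median log2 fold change of 0.029. The rises were led by Spp1 (osteopontin) at 2.83 (SE 0.16) and Trem2, a lipid-sensing receptor, at 2.38 (SE 0.18), both with groups apart. Gpnmb, also a defining gene of this list, overlapped, at 379 to 3693 with saline and 526 to 1170 at 2 weeks. Of 20 lysosomal genes 8 rose, a count that was 5 without saline mouse 1 and 2-week mouse 2 and 4 without 2-week mouse 2 alone. Lgmn, the protease legumain, had groups apart, from 822, 1169 and 1508 with saline to 2366, 3573 and 11279.7 at 2 weeks (1.77 (SE 0.15)).

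**Figure D2:**
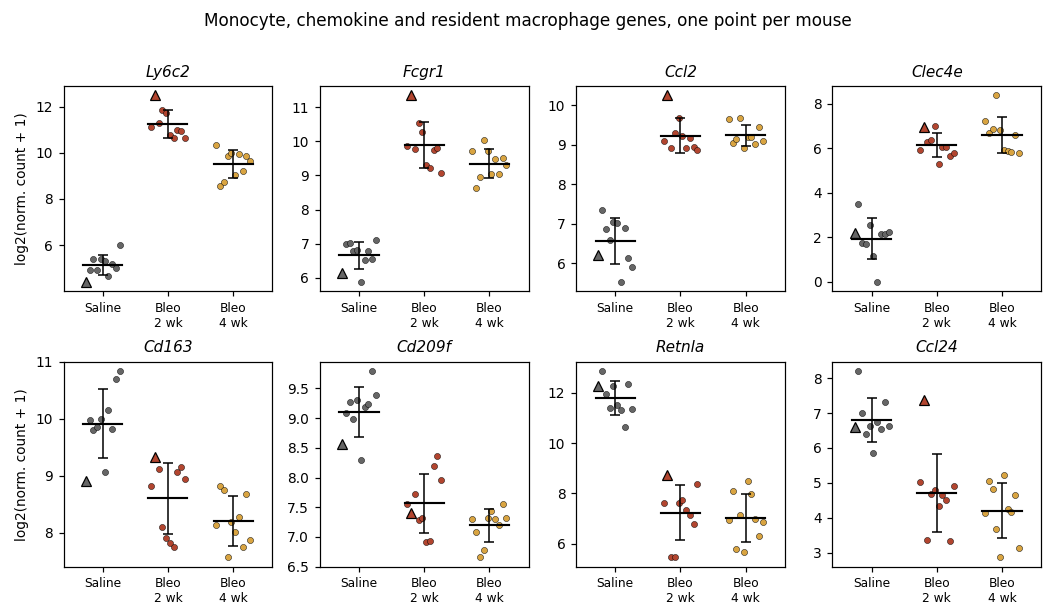
Levels of 8 genes as log2(normalized count + 1) in each mouse given saline, bleomycin for 2 weeks or bleomycin for 4 weeks (10 mice a group), with the mean and SD as black lines and saline mouse 1 and 2-week mouse 2 as triangles. All 2-week mice lie above all saline mice for Ly6c2, Fcgr1, Ccl2 and Clec4e and below them for Retnla, while the 2 groups overlap for Cd163, Cd209f and Ccl24.

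Chemokines that attract monocytes and neutrophils rose together with acute-phase proteins. Of 19 CC chemokine genes, 9 rose and 1 (Ccl24) fell. Ccl2, the main ligand of the monocyte receptor CCR2, had counts of 45.1, 106 and 161 with saline and of 466, 559.8 and 1223 at 2 weeks. All 2-week mice exceeded the saline range, with a log2 fold change of 2.68 (SE 0.17, limma adjusted p = 4.51e-17). Its neighbour Ccl7, a ligand of the same receptor, rose by 2.50 (SE 0.21), and the chemokines Ccl3 and Ccl4 by 3.36 (SE 0.32) and 3.24 (SE 0.32). Groups were apart for each of these. Ccl8, in contrast, had counts of 1296, 2109 and 2689 with saline and of 1668, 2913 and 27011 at 2 weeks, where 1 mouse (2-week mouse 2) was far above the rest. Its log2 fold change of 0.74 (SE 0.26) was 0.40 (SE 0.16, limma adjusted p = 0.0354) without that mouse, and no longer passed.

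Of 14 CXC and CX3C chemokine genes, 9 rose and 2 fell. The neutrophil attractants rose from very low levels. Cxcl1 counted 2.28, 4.79 and 8.49 with saline and 15.4, 24.7 and 41.1 at 2 weeks, and Cxcl2 counted 0, 3 and 6.85 and 4.8, 41.8 and 172. The groups were apart for Cxcl1, and 8 of 10 2-week mice exceeded the saline range for Cxcl2, with log2 fold changes of 2.22 (SE 0.26) and 3.35 (SE 0.49). The 2 genes that fell are chemokines that resting skin makes in abundance. Cxcl14, expressed by epidermal cells, had counts of 1946, 2453 and 3243 with saline and of 664, 1011 and 1215 at 2 weeks, with no overlap (-1.38 (SE 0.13, limma adjusted p = 2.06e-11)). Cxcl12, made by fibroblasts and pericytes, fell by 0.70 on the log2 scale, with 7 of 10 mice below the saline range.

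The acute-phase and alarmin list had 15 rises and 1 fall among 19 tested genes, a median log2 fold change of 1.29, and 7 genes with groups apart. Lcn2, a protein that withholds iron carriers from bacteria, counted 11.9, 24.1 and 34.7 with saline and 168, 564 and 6035 at 2 weeks. S100a9, a subunit of calprotectin, went from 2.58, 11.1 and 33.9 to 39.9, 194 and 1767, while its partner S100a8 ranged from 11.4, 21.8 and 71.5 to 16.4, 98.3 and 882. Groups were apart for Lcn2 (4.94 (SE 0.42, limma adjusted p = 3.77e-13)) and S100a9 (4.08 (SE 0.48)) but 5 of 10 2-week mice lay within the saline range for S100a8 (2.07 (SE 0.51)). Saa1, a serum amyloid A gene nearly identical to Saa2, had at most 1.29 normalized counts in saline mice and 5.87 to 684 at 2 weeks. The member that fell was Lbp, the carrier of bacterial lipopolysaccharide (-0.63 (SE 0.18)), which did not pass the fold change threshold by edgeR or DESeq2. The highest value of Lcn2, S100a9 and Saa1 at 2 weeks belonged to 2-week mouse 2 in each case.

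Among 23 cytokine ligands, 6 rose and 0 fell, all from low counts. Il6 counted 0, 2.28 and 5.92 with saline and 5.61, 14.2 and 25.8 at 2 weeks (2.27 (SE 0.37)), Osm, another cytokine of the interleukin 6 family, 3.42, 6.25 and 12.1 and 10.6, 29.6 and 75.4 (2.03 (SE 0.29)). In both genes 9 of 10 2-week mice exceeded the saline range. Il1b rose by 1.67 (SE 0.27) and Tnf by 0.94 (SE 0.20), and Il1b shares exons with an antisense transcript. On the receiving side, 10 of 31 cytokine receptor and feedback genes rose and 2 fell, or 1 without saline mouse 1. Csf3r, the receptor for the neutrophil growth factor, counted 38.2, 63.3 and 105 with saline and 225, 379.5 and 1191 at 2 weeks, with groups apart (2.66 (SE 0.23, limma adjusted p = 6.71e-13)). Tnfrsf1b, a receptor for TNF, was also apart (1.62 (SE 0.16)), and Il1r2, the decoy receptor for interleukin 1, fell by 0.64 on the log2 scale.

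Receptors for microbes and for products of damaged cells rose. Of 30 pattern recognition and inflammasome genes, 23 rose and 0 fell, with a median log2 fold change of 1.25 and groups apart in 13. Clec4e (Mincle), a lectin for products of dying cells and mycobacteria, had counts of 0, 3.44 and 10.3 with saline and of 38.4, 66.5 and 126 at 2 weeks. No mouse overlapped, and the log2 fold change was 4.21 (SE 0.33, limma adjusted p = 3.07e-14). Fpr1, the receptor for formyl peptides of bacteria and mitochondria, rose from a saline median of 1.16 to a 2-week median of 26.3 (3.53 (SE 0.39)). The Toll-like receptor genes Tlr2 and Tlr4 moved less, by 1.20 (SE 0.16) and 0.97 (SE 0.13), and Clec7a, which encodes the glucan receptor Dectin-1, by 1.33 (SE 0.18). Of 27 complement genes, 13 rose and 2 fell. Cfb, factor B of the alternative pathway, went from 383, 757 and 1011 with saline to 1369, 2684 and 6961 at 2 weeks, with groups apart (2.18 (SE 0.20, limma adjusted p = 6.06e-12)), and C3ar1, the receptor for C3a, rose by 2.50 (SE 0.16). C3 itself did not pass the test (0.51 (SE 0.20)), and C6, of the membrane attack complex, fell by 1.09 on the log2 scale.

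Genes that present antigen on class I molecules rose. Genes of the class II molecules did not pass the test, while Ctss, a protease that also acts in class II presentation, rose. All 13 of the 23 listed genes that rose belong to the class I pathway, the immunoproteasome or the protease Ctss, and 0 genes fell. H2-K1, a class I heavy chain, counted 8269, 12642 and 17296 with saline and 18976, 21782 and 49620.1 at 2 weeks, and its light chain B2m, chosen after its values were seen, counted 9056, 14155 and 22429 and 22997, 26307 and 43906. Groups were apart in both (0.91 (SE 0.12) and 0.98 (SE 0.11)). Psmb10, a subunit of the immunoproteasome, rose by 1.16 (SE 0.14). Ctss, a protease of antigen-presenting cells, had the largest rise of the list, 2.13 (SE 0.16), with groups apart. For class II, H2-Aa counted 5371, 9274 and 12378 with saline and 5937, 8982 and 20581 at 2 weeks (0.08 (SE 0.17)) and the invariant chain Cd74 counted 10526, 21433 and 27469 and 10558, 16909.5 and 51260.1 (-0.10 (SE 0.21)), with wide overlap. All 12 listed interferon-stimulated genes rose at the same time, and their part in the class I values was not tested.

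Genes of leukocyte adhesion and movement rose almost without exception: 19 of 20 rose and 0 fell, with groups apart in 10 and a median log2 fold change of 1.17. Itgb2, the shared chain of the leukocyte integrins, counted 377, 622 and 757 with saline and 815, 1551 and 2462 at 2 weeks, with no overlap (1.27 (SE 0.15, limma adjusted p = 4.16e-09)). Lcp1 (L-plastin), an actin bundling protein, rose by 1.01 (SE 0.15). Arhgdib, a regulator of small GTPases in blood cells, had counts of 686, 1093 and 1669 with saline and of 1308, 1663 and 4644 at 2 weeks, with 5 of 10 mice above the saline range. Its log2 fold change was 0.76 (SE 0.14, limma adjusted p = 4.5e-05), and 0.54 (SE 0.11, limma adjusted p = 7.74e-05) without saline mouse 1 and 2-week mouse 2, below the fold change threshold. On the vessel side, 8 of 25 blood endothelial genes rose and 0 fell. The largest changes were in adhesion molecules that catch leukocytes: Selp (P-selectin) went from 16.7, 50.8 and 61.8 to 115, 190.4 and 353 and Vcam1 from 71.5, 105 and 137 to 288, 345 and 571, both with groups apart (2.08 (SE 0.19) and 1.82 (SE 0.12)). Cdh5, the junction protein of all endothelium, did not pass (0.39 (SE 0.16)). Of 10 lymphatic genes, 0 rose and 1 (Tbx1) fell, a share near the 7.43% of all tested genes, and 2 rose without 2-week mouse 2. Tbx1 was highest in saline mouse 1 (755 against a group median of 268), which had the highest summed hair level. The part of hair in the fall of Tbx1 was not tested.

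Neutrophil genes rose from low counts, 8 of 11 tested genes, and 1 fell. Cd177, a surface protein of neutrophils, counted 0, 0.571 and 6.88 with saline and 12.6, 31.4 and 72.8 at 2 weeks (4.05 (SE 0.35)). The groups were apart for Cd177, as they were for 3 of the 11 genes in all. They overlapped for the defining genes Cxcr2 and Retnlg. Cxcr2 ranged from 8.35 to 42.4 with saline and from 23.5 to 190 at 2 weeks. Retnlg ranged from 1.29 to 48.9 and from 14.2 to 800, the highest in 2-week mouse 2. Padi4, an enzyme of neutrophil nuclei, was the fall (-1.12 (SE 0.41)), and it did not pass without saline mouse 1 (0 falls). It counted 755 in saline mouse 1, which had the highest summed hair level, and 121 in saline mouse 2, which had the lowest. At 2 weeks it ranged from 63.1 to 165, and the part of hair in this fall was not tested. Of 25 T and NK cell genes, 16 rose and 0 fell. The granzymes of cytotoxic cells rose most: Gzma went from 2.58, 10.7 and 25.1 to 40.3, 73.2 and 237 and Gzmb from 2.29, 8.37 and 12.1 to 27.9, 56.4 and 179.5, with no overlap and log2 fold changes of 3.05 (SE 0.33, limma adjusted p = 3.15e-10) and 3.02 (SE 0.33). Shared T cell genes moved less, since Cd3d rose by 0.82 (SE 0.20) while Cd3e and Cd3g did not pass (0.29 (SE 0.18) and 0.50 (SE 0.16)). Resident epidermal lymphocytes also carry these chains.

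Mast cell and basophil genes rose in 10 of 14 cases, and 0 fell. Mcpt8, a protease found in basophils, was at a median of 0 with saline, with a highest value of 4.85, and counted 8.03, 24 and 133 at 2 weeks. Fcer1a, a chain of the IgE receptor, counted 0, 7.17 and 13.3 with saline and 26.7, 51.6 and 97.6 at 2 weeks, with groups apart (3.02 (SE 0.30, limma adjusted p = 6.75e-11)). The proteases of connective tissue mast cells were abundant before and rose less, Cma1 by 1.20 (SE 0.12) and Cpa3 by 0.87 (SE 0.12). B and plasma cell genes were mixed, with 5 rises and 4 falls among 15. Cd22, a sialic acid lectin of B cells, was apart, at 1.21, 3.5 and 5.73 with saline and 23.8, 50.2 and 161 at 2 weeks (3.72 (SE 0.27)), while the immunoglobulin chain Ighg1 fell by 1.30 on the log2 scale and Igkc did not pass (0.89 (SE 0.56)). Groups overlapped for the defining genes Cd79a and Jchain. Cd79a ranged from 0 to 4.58 with saline and from 1.03 to 13 at 2 weeks, and Jchain from 3.42 to 122 and from 3.96 to 91.8. Which cells gave the rise of Cd22 was not tested. Among 15 dendritic and Langerhans cell genes, 1 rose (Ccr7, the homing receptor for lymph nodes, 1.54 (SE 0.23)) and 2 fell. Xcr1, a receptor of cross-presenting dendritic cells, was 1 of those (-1.15 (SE 0.23)), and 4 genes fell without saline mouse 1 and 2-week mouse 2. Langerhans cell marker Cd207 did not pass (-0.50 (SE 0.17)), but was called without saline mouse 1, at -0.65 (SE 0.14, limma adjusted p = 0.000299).

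Genes of the dermal matrix fell more often than they rose at 2 weeks. Of 29 collagen chain genes, 13 fell and 3 rose, with a median log2 fold change of -0.58, and groups were apart for 1 of them. Col1a1, the main chain of type I collagen, had counts of 18893, 28540.1 and 57983 with saline and of 8515, 18491 and 36511 at 2 weeks. The ranges overlapped widely, with 5 of 10 mice below every saline mouse, and the log2 fold change was -0.71 (SE 0.24, limma adjusted p = 0.0148). Without 2-week mouse 2, the lowest of its group, it was -0.58 (SE 0.23, limma adjusted p = 0.0384). The call was then lost only because the fold change fell just short of 1.5. Col14a1, a collagen on fibril surfaces, fell further, from 716, 885 and 1362 with saline to 139, 359 and 771 at 2 weeks (-1.38 (SE 0.21, limma adjusted p = 8.73e-07)), with 9 of 10 mice below. Col3a1 did not pass (-0.56 (SE 0.22)), but was called without saline mouse 1, at -0.65 (SE 0.22, limma adjusted p = 0.0177). The gene with groups apart was Col8a1, a short-chain collagen of vessels and injured tissue, which rose from 63, 82.2 and 119.7 to 125, 264 and 323 (1.5 (SE 0.18, limma adjusted p = 6.16e-09)).

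Genes for proteins of elastic fibres and cell adhesion were also examined. Of 31 matricellular and elastic fibre genes, 13 fell and 2 rose. Mfap4, a microfibril protein of elastic fibres, had counts of 2171, 3519.9 and 4676 with saline and of 153, 769 and 1631 at 2 weeks, and no mouse overlapped (-2.28 (SE 0.28, limma adjusted p = 1.49e-08)). It overlaps the exons of Mapk7 on the other strand. Thbs4, a thrombospondin of tendon and muscle, was apart as well (-2.14 (SE 0.20)). Fn1 (fibronectin) and Eln (elastin), chosen after their values were seen, fell by 1.13 and by 1.44 on the log2 scale. The rises were Spp1, given above, and Ccn2, a connective tissue growth factor that responds to TGF-beta and stretch, from 394, 532 and 742 with saline to 514, 912 and 1169 at 2 weeks (0.63 (SE 0.14)). Postn (periostin) did not pass (0.11 (SE 0.12)). Of 24 proteoglycan and hyaluronan genes 5 fell and 0 rose, and 3 fell without 2-week mouse 2. Gpc3, a proteoglycan of the cell surface, fell from 719, 904 and 1036 to 135, 215 and 377, with groups apart (-2.09 (SE 0.14, limma adjusted p = 1.19e-16)).

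Of 27 genes of collagen hydroxylation, processing and crosslinking, 7 fell and 2 rose, and 0 rose without saline mouse 1. Loxl1, which crosslinks elastin, counted 568, 865 and 1305 with saline and 195, 396 and 616 at 2 weeks, with 9 of 10 mice below the saline range (-1.21 (SE 0.18)), whereas Lox did not pass (0.17 (SE 0.13)). Matrix proteases and their inhibitors went both ways, with 8 rises and 8 falls among 32. Timp1, an inhibitor of matrix metalloproteinases, counted 43.8, 78.9 and 109 with saline and 235, 394 and 2429 at 2 weeks. Each 2-week mouse exceeded each saline mouse, with a log2 fold change of 2.69 (SE 0.23, limma adjusted p = 3.78e-13). Among the proteases, the collagenase gene Mmp13 rose by 2.16 (SE 0.48) and the stromelysin gene Mmp3 by 1.27 (SE 0.15). Timp4 fell by 1.31 on the log2 scale, and it overlaps Syn2.

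Fibroblast genes fell in 13 of 22 cases and rose in 2, with groups apart in 6. Pi16, a marker of fibroblasts around vessels and in the fascia, had counts of 1887, 4689 and 5475 with saline and of 311, 671 and 1428 at 2 weeks. All 2-week mice were below the saline range (-2.67 (SE 0.23, limma adjusted p = 8.1e-13)). Pdgfra, the receptor that marks most dermal fibroblasts, was apart as well, from 856, 1425 and 1481 to 324, 576 and 836 (-1.24 (SE 0.12, limma adjusted p = 3.72e-11)). Lrrc15, a membrane protein of activated fibroblasts and of the hair follicle sheath, counted 140.5, 1895 and 5777 with saline and 28.7, 67.4 and 575 at 2 weeks, with 9 of 10 mice below (-4.0 (SE 0.53)). The rises were Ly6a (Sca-1), which interferon also induces, at 1.24 (SE 0.12), and the imprinted gene Mest at 1.03 (SE 0.29), which overlaps Copg2. Of 18 contractile genes of smooth muscle, pericytes and myofibroblasts, 2 rose and 2 fell, and 0 fell without saline mouse 1 and 2-week mouse 2. Acta2, the actin of myofibroblasts, did not pass (-0.22 (SE 0.14)). The rises were Des (desmin), shared with skeletal muscle, at 1.04 (SE 0.16) and a pericyte gene, and groups were apart in both.

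**Figure D3:**
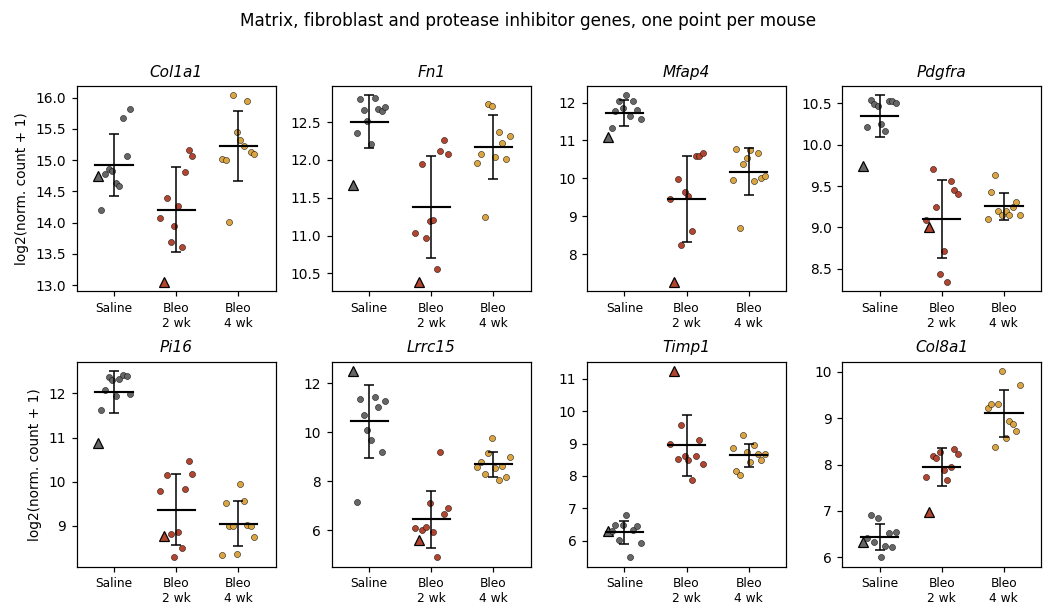
Levels of 8 matrix, fibroblast and inhibitor genes as log2(normalized count + 1) in each mouse given saline, bleomycin for 2 weeks or bleomycin for 4 weeks (10 mice a group), with mean and SD as black lines and saline mouse 1 and 2-week mouse 2 as triangles. The 2-week mice lie below saline for Mfap4, Pdgfra and Pi16 and above saline for Timp1 and Col8a1, and the 4-week mice lie above the 2-week mice on average for Col1a1, Fn1, Lrrc15 and Col8a1.

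Genes of WNT, TGF-beta and growth factor signalling followed. Of 27 WNT pathway genes, 16 fell and 0 rose, with a median log2 fold change of -0.78 and groups apart in 5. Sfrp2 and Sfrp4, secreted WNT binding proteins of dermal fibroblasts, counted 64.1, 108 and 205 and 121, 170.0 and 283 with saline. At 2 weeks they counted 12.3, 18.3 and 44.3 and 13.5, 28 and 72.3. Neither gene had a mouse within the saline range, and the log2 fold changes were -2.47 (SE 0.28, limma adjusted p = 9.01e-10) and -2.32 (SE 0.28). Wif1, a WNT inhibitor, did not pass (-0.47 (SE 0.21)). Of 32 genes of the TGF-beta, activin and BMP pathway, 8 fell and 0 rose. Those with the largest falls were Bambi, a decoy receptor, and Smad6, an inhibitor of BMP signals, at -1.94 (SE 0.38) and -1.45 (SE 0.22), while Tgfb1 did not pass (0.22 (SE 0.19)). Growth factors and their binding proteins gave 7 rises and 9 falls among 31. Igf2, a growth factor, rose from 70.3, 141 and 171 to 235, 481 and 1086, with groups apart (1.84 (SE 0.25, limma adjusted p = 7.06e-08)). Igfbp6 and Igfbp3, which bind such factors, fell by 1.69 and by 1.11 on the log2 scale, and Hgf, a growth factor for epithelium and muscle precursors, rose by 1.28 (SE 0.18).

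The hair follicle moved along with these lists. The summed level of 22 hair shaft and root sheath genes ranged from 2773 to 293022 with saline and from 318 to 2581 at 2 weeks, and all 22 genes fell. Markers such as Lrrc15, Bambi and the WNT genes are also expressed in growing follicles. The part of hair in the falls of matrix, fibroblast, WNT, BMP, melanocyte and mitosis genes and of Padi4 and Tbx1 was not tested. Without saline mouse 1, which had the highest hair level, 2687 genes were called over the whole table in place of 2851. The remaining saline mice still lay above every 2-week mouse in summed hair level, so this count cannot give the part of hair.

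The mice given bleomycin for 4 weeks were set beside these values for the same genes. This comparison shares the 2-week mice with the one above, so the values are given side by side only. Between 4 and 2 weeks of bleomycin, 253 genes (1.49%) were higher and 147 (0.863%) lower at 4 weeks. Of the 29 collagen genes, 14 were higher at 4 weeks and 0 lower. Col1a1 counted 16440, 37216 and 67224 at 4 weeks, a log2 difference from 2 weeks of 1.01 (SE 0.24, limma adjusted p = 0.00763), and Fn1 counted 2431, 4550.4 and 6845, a difference of 0.79 (SE 0.19, limma adjusted p = 0.0107). Pi16 and Mfap4 differed by -0.32 (SE 0.23, limma adjusted p = 0.457) and 0.72 (SE 0.28, limma adjusted p = 0.131), which did not pass. Col8a1 and Igf2 were higher still at 4 weeks, by 1.17 and 1.14, and Ly6c2, Saa3 and Gzma were lower, by -1.72, -2.03 and -1.37 on the log2 scale. For Ccl2, Clec4e and Retnla the differences were 0.01, 0.46 and -0.20 and did not pass the test.

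Genes of sterol synthesis fell. Of 20 genes of cholesterol synthesis and uptake, 16 fell and 0 rose, with a median log2 fold change of -0.90, and groups were apart in 14. Insig1, the sterol-sensing partner of the SREBP pathway and itself a target of it, had counts of 975, 1229 and 1611 with saline and of 360.3, 430.1 and 719 at 2 weeks. All 2-week mice lay below all saline mice (-1.36 (SE 0.10, limma adjusted p = 1.38e-14)). The same held for Sqle, the second rate-limiting enzyme of the pathway, with 1277, 1581 and 1850.5 and 631, 801 and 934 (-1.0 (SE 0.08, limma adjusted p = 1.04e-13)). Idi1 and Lss, whose promoters are printed above, were apart too, at -1.09 (SE 0.11) and -0.98 (SE 0.10).

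Sebaceous glands, which secrete lipid onto hair and skin, and dermal fat both make lipid. Of 18 sebaceous genes, 12 fell and 0 rose, with a median log2 fold change of -0.90. Cyp2g1, a cytochrome P450 on this list, counted 2367, 5059.9 and 7527 with saline and 67.3, 457 and 1265 at 2 weeks, with no overlap (-3.82 (SE 0.44, limma adjusted p = 2.35e-09)), and was lower again at 4 weeks, by -2.16. Scd3, a desaturase of sebocytes, counted 949, 3038 and 3329.6 and 323, 777 and 1537, with 6 of 10 mice below the saline range (-1.68 (SE 0.21)). Awat2, which makes wax esters, fell by 1.08 on the log2 scale. Of 23 fat cell genes, 14 fell and 0 rose. Lep (leptin), the hormone of white fat, had counts of 268, 480.3 and 653 with saline and of 29.9, 94.1 and 217 at 2 weeks, with groups apart (-2.43 (SE 0.28, limma adjusted p = 2.38e-09)). Fasn, the fatty acid synthase of fat and sebaceous cells, counted 5340.4, 10331 and 20469.7 and 1316, 3659.7 and 5679.6 (-1.61 (SE 0.23)), and Plin1, which coats the lipid droplet, fell by 0.66 on the log2 scale, with the call lost without 2-week mouse 2, at -0.53 (SE 0.20, limma adjusted p = 0.0341). Adipoq (adiponectin), a marker of mature fat cells, did not pass (-0.24 (SE 0.16)).

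**Figure D4:**
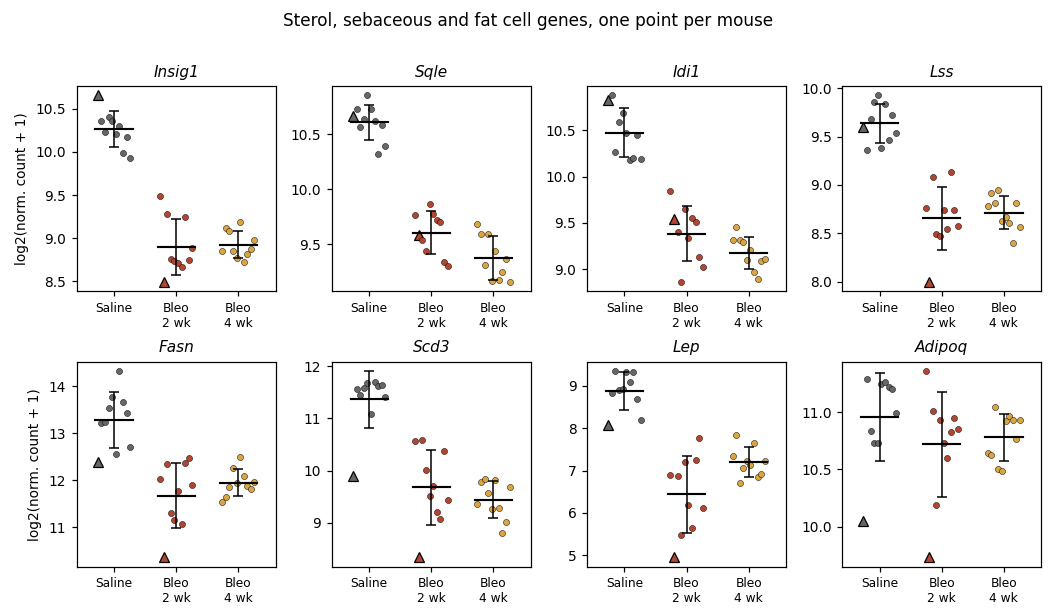
Levels of 4 sterol genes (Insig1, Sqle, Idi1, Lss) and 4 genes of sebaceous or fat cells (Fasn, Scd3, Lep, Adipoq) as log2(normalized count + 1) in each mouse given saline, bleomycin for 2 weeks or bleomycin for 4 weeks (10 mice a group), with mean and SD as black lines and saline mouse 1 and 2-week mouse 2 as triangles. The 4 sterol genes and Lep separate all 2-week from all saline mice, and Adipoq overlaps.

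Muscle showed changes of precursor and denervation genes beside levels of the main contractile genes that did not pass the test. Of 16 fast-twitch genes, 0 rose and 0 fell by limma, although 1 rose by DESeq2 and 1 without 2-week mouse 2. At an unadjusted p below 0.05, 2 of the 16 passed. Myh4, the myosin of fast fibres, counted 15869.7, 58516 and 82770.1 with saline and 9764, 43954 and 72874 at 2 weeks (-0.28 (SE 0.27)). Of 14 genes of muscle regeneration and denervation, in contrast, 11 rose and 0 fell, with a median log2 fold change of 1.70 and groups apart in 6. Cdkn1a is among the rises and the genes apart, is not particular to muscle, and is counted again among the p53 targets below. Myog (myogenin), which drives the fusion of muscle precursors, had counts of 11.9, 25.9 and 57.9 with saline and of 107, 199.9 and 397 at 2 weeks, and Chrng, the fetal subunit of the acetylcholine receptor, 0, 3.52 and 11.8 and 12.9, 49.4 and 144. Both were apart in every mouse (2.75 (SE 0.28, limma adjusted p = 8.75e-11) and 3.36 (SE 0.44, limma adjusted p = 4.83e-08)). Chrna1, the adult and fetal receptor chain, rose by 2.88 (SE 0.16). Of 10 slow-twitch genes 5 rose and 0 fell. Tnni1, slow troponin I, counted 2.29, 15.9 and 38.2 with saline and 37.5, 89.8 and 189 at 2 weeks (2.61 (SE 0.44)), and Tnnt1, slow troponin T, rose by 1.60 (SE 0.36). The slow myosin Myh7 did not pass (-0.43 (SE 0.83)). Of 18 Schwann cell and nerve genes 3 rose, led by Gap43 of growing axons at 1.45 (SE 0.26), and 6 rose by edgeR and by DESeq2.

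Keratins of injured skin rose, and the main keratins of resting epidermis did not pass the test. Of 20 epidermal keratinocyte genes, 3 rose and 0 fell, and the rises were Krt6b, Krt16 and Krt6a, the keratins of wounded or hyperproliferative epidermis, which the hair follicle also makes. Krt6b had counts of 9.14, 33.9 and 274 with saline and of 258, 6193 and 12858 at 2 weeks. In 9 of 10 2-week mice it exceeded the saline range, and the spread at 2 weeks was wide (6.42 (SE 0.64, limma adjusted p = 5.48e-11)). Krt16 counted 341, 491 and 2101 and 445, 3991 and 12072, with 7 of 10 mice above (2.38 (SE 0.47, limma adjusted p = 8.55e-05)). Krt6a rose by 0.91 (SE 0.36, limma adjusted p = 0.0461) and was 0.86 (SE 0.38, limma adjusted p = 0.0667) without 2-week mouse 2, which did not pass, and Krt6a and Krt6b are close paralogs whose reads can be confused. Krt5 and Krt10 did not pass (0.06 (SE 0.10) and -0.10 (SE 0.15)). Cornified envelope genes were mixed, with 8 rises and 3 falls among 25, or 5 rises without saline mouse 1 and 2-week mouse 2. Serpinb3a, a protease inhibitor of stressed epithelium, was apart, at 0, 2.35 and 10.9 with saline and 14.4, 69.2 and 176 at 2 weeks (3.88 (SE 0.44)), and Stfa1, a stefin of neutrophils and keratinocytes with near-identical copies, rose by 3.90 (SE 0.56). Sprr1a fell by 0.80 on the log2 scale, and Lor (loricrin) did not pass (-0.22 (SE 0.18)).

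Targets of p53, the factor that answers DNA breaks, rose. Of 23 p53 targets and cell cycle inhibitors, 18 rose and 0 fell, with a median log2 fold change of 0.82 and groups apart in 10. Gdf15, a stress cytokine, had counts of 1.14, 3.13 and 5.71 with saline and of 31, 61 and 122 at 2 weeks. Cdkn1a (p21), the cell cycle inhibitor, counted 2754, 3158 and 3918 and 5367, 6130.4 and 7771, and Mdm2, the ligase that degrades p53, 526, 587 and 614 and 882, 1015 and 1108. No mouse overlapped for any of the 3, with log2 fold changes of 3.90 (SE 0.23, limma adjusted p = 6.51e-18), 0.91 (SE 0.06, limma adjusted p = 3.43e-17) and 0.82 (SE 0.05, limma adjusted p = 2.15e-18). Pmaip1 (Noxa), a trigger of cell death, rose by 1.56 (SE 0.13). Cdkn2a, another cell cycle inhibitor, rose from low counts of 0, 1.25 and 4.74 with saline to 2.18, 3.86 and 16.4 at 2 weeks (1.38 (SE 0.31, limma adjusted p = 0.000373)), with 4 of 10 mice above the saline range, and was higher again at 4 weeks, by 1.84 (SE 0.31, limma adjusted p = 0.000325). Mitosis genes fell in 3 of 11 cases and rose in 0, and 3 also fell without saline mouse 1 and 2-week mouse 2. Their summed level was highest in saline mouse 1 (9329), which had the highest hair level. Neither the part of hair nor a link to the p53 targets was tested.

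Oxidative stress genes were split, with 6 rises and 6 falls among 26. The oxidase subunits of phagocytes rose, with Cybb at 228, 429 and 676 with saline and 1063, 1581 and 3146 at 2 weeks (2.02 (SE 0.18)) and Ncf1, which overlaps Gtf2ird2, at 1.64 (SE 0.15). The extracellular peroxidase Gpx3 fell from 2511, 5144 and 7569.6 to 1248, 1722 and 3011, with 8 of 10 mice below the saline range (-1.45 (SE 0.15, limma adjusted p = 7.77e-11)). Hmox1 did not pass (0.30 (SE 0.17)). Of 24 genes of protein folding and the unfolded protein response, 2 fell (1 without both doubted mice) and 0 rose, and of 21 genes of glycolysis and hypoxia, 1 rose and 1 fell. The rise was Hk3, the hexokinase of myeloid cells, from 54.8, 85.8 and 156 to 164, 298 and 1094 (1.89 (SE 0.20)). It overlaps Unc5a. Of 38 respiratory chain genes 0 were called by limma, edgeR or DESeq2, and 10 had an unadjusted p below 0.05.

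Genes of the circadian clock differed between the groups, and the hour at which tissue was taken is not given, so hour and treatment cannot be told apart. Of 16 clock genes, 6 rose and 2 fell, with groups apart in 3. Dbp, an output of the clock that peaks by day in mice, counted 71.1, 121 and 182 with saline and 267, 414 and 520.3 at 2 weeks. No mouse overlapped (1.79 (SE 0.18, limma adjusted p = 3.86e-11)). Cry1, a repressor with another phase, fell from 156, 191 and 248 to 62.4, 106 and 129, also apart (-0.95 (SE 0.10, limma adjusted p = 1.5e-10)), and Npas2 fell by 0.88 on the log2 scale. Per1, which glucocorticoids can also induce, rose by 1.14 (SE 0.19). At 4 weeks 8 of the 16 were higher and 1 lower than at 2 weeks, with Dbp higher by 1.04 (SE 0.18, limma adjusted p = 0.000373). Dbp overlaps Sphk2 on the other strand. Of 13 immediate-early and heat shock genes, which respond to tissue handling, 2 rose and 0 fell, with Fos apart, at 103, 147 and 181 with saline and 181, 317 and 799 at 2 weeks (1.16 (SE 0.20)).

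**Figure D5:**
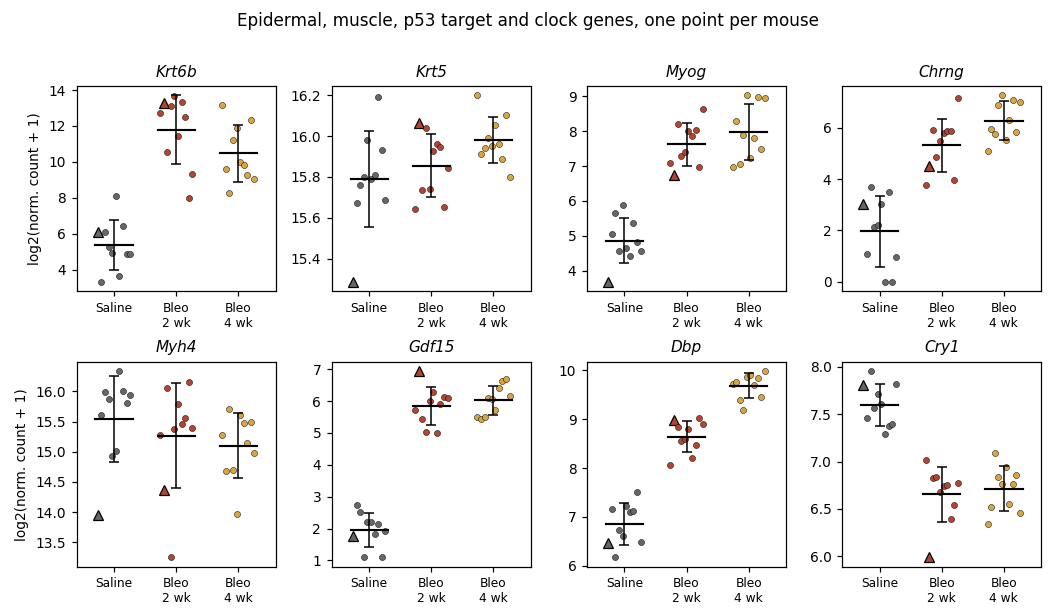
Levels of epidermal (Krt6b, Krt5), muscle (Myog, Chrng, Myh4), p53 target (Gdf15) and clock (Dbp, Cry1) genes as log2(normalized count + 1) in each mouse given saline, bleomycin for 2 weeks or bleomycin for 4 weeks (10 mice a group), with mean and SD as black lines and saline mouse 1 and 2-week mouse 2 as triangles. Myog, Chrng, Gdf15 and Dbp lie higher in every 2-week mouse than in any saline mouse, Cry1 lies lower in every 2-week mouse, and Krt5 and Myh4 overlap.

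Markers of blood and of tissue that a biopsy could carry along were also examined. Of 5 red blood cell genes, 2 rose, with the summed level between 861 to 3001 for saline and 923 to 7412 at 2 weeks, and 1 rose without either or both of the doubted mice. Of 7 milk and mammary genes in the table only 1 reached the filter, Csn3, and the summed level of the 7 was at most 19.3 normalized counts in any saline mouse. Of 4 tested lymph node genes, 0 rose and 1 fell. Melanocyte genes fell in 11 of 12 cases, and their summed level ranged from 1051 to 15836 with saline and from 1005 to 2305 at 2 weeks. The highest saline value was that of mouse 1 and the lowest that of mouse 2, which also had the highest and the lowest summed hair level. The part of hair in this fall was not tested.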

How the data were processed

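RNA-seq of back skin from 44 mice in 5 groups was used. Per the labels and the study's methods, libraries were made with a stranded poly(A) kit and sequenced as paired-end reads. The submitters' processing notes name STAR 2.4.0 and DESeq2 1.12.3, on mm10. The counting tool, the annotation and the strand setting are not given in the sources used here, so genes with overlapping exons on the other strand are uncertain. The authors deposited 1 table of counts divided by 1 DESeq2 size factor per mouse, a normalized signal that is not corrected for gene length, so levels are compared between mice and not between genes. Within each mouse the values were whole multiples of 1 step for 100% of genes to a tolerance of 0.01, which gave the reads back. Reads per mouse are given above. No batch is labelled, and no pair of libraries of a group was alike within sampling noise.

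The 17037 genes with a mean normalized count above 3 were tested on log2(value + 1) with limma 3.58.1 (trend), in 1 fit of all 44 mice with 5 group means, with Benjamini-Hochberg adjustment over all genes tested. Fold changes on this scale understate the change of low genes. A gene was called at an adjusted p below 0.05 and a fold change above 1.5, after the thresholds of the study. The members and the 54 gene lists were chosen with earlier results of these data known, so a list's count is a description. Of 1117 list entries 1098 were found in the table, and counts cover those that passed the filter, which a gene high in 1 group alone can also do. Single genes named are the first 3 of each list, its 2 largest rises and 2 largest falls, the 10 largest in each direction over all genes whose groups do not overlap, and the 5 largest in each direction between 4 and 2 weeks among genes called at 2 weeks, from which the text gives a selection. Some genes are not reported here. Others are said to have been chosen after their values were seen. Promoter sequences and motifs come from RefSeq on GRCm38.p6.

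Alternatives were edgeR 4.0.16 quasi-likelihood and DESeq2 1.42.0 on the recovered reads, a pseudocount of 0.1, no filter, a stricter filter, a fit of only the groups compared, TMM and quantile scaling, a replicate block, no fold change threshold, and fits without saline mouse 1, 2-week mouse 2 or both. The 3 tools were tested on simulated data for 2 weeks against saline over 17037 genes with 200 genes changed 2-fold, of which limma, edgeR and DESeq2 recovered 170, 173 and 173 with 10, 4 and 12 false calls. The changed genes were drawn only from genes above a low saline level, with the same spread for every gene and no odd mice. Recovery of changes in low genes was therefore not tested. Analyses ran in R 4.3.3 and Python 3.11.15.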

Additional observations from a re-analysis of the deposited data

Results flagged for a closer look

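Each gene named in the text was examined for a mouse whose log2 value lay far from the other 9 of its group, by Dixon's ratio of the gap to the nearest mouse over the range of the group, in the saline and in the 2-week group. Of 310 sets of 10 mice, 40 had such a mouse, where chance gives about 1 in 20 sets. Saline mouse 1 was that mouse in 21 sets and 2-week mouse 2 in 15, and the values below are that mouse's normalized count against the median of its group.

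Saline mouse 1 was lowest in 20 of its sets. Among leukocyte and inflammatory genes it was lowest for Adgre1 (384 against 849), Itgb2 (377 against 622), Lcp1 (787 against 1742), Cd74 (10526 against 21433), C3 (1695 against 5353) and Lcn2 (11.9 against 24.1). Dendritic, cytokine receptor and vessel genes with their lowest value in this mouse were Cd207 (128 against 323), Xcr1 (19.1 against 78.7), Il1r2 (516 against 778) and Selp (16.7 against 50.8). It also had the lowest values of the fibroblast and matrix genes Fn1 (3247 against 6434), Pdgfra (856 against 1425), Pi16 (1887 against 4689), Igfbp3 (1124 against 3254) and Timp4 (16.7 against 72.2). Genes of fat, sebaceous gland, epidermis and clock that were lowest there were Adipoq (1060 against 2198), Awat2 (385 against 877), Scd3 (949 against 3038), Krt10 (30515 against 63238) and Npas2 (84.7 against 202). The gene for which it was highest was Tbx1 (755 against 268).

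In the 2-week group, mouse 2 was highest for the chemokine and cytokine genes Ccl8 (27011 against 2913), Ccl7 (1475 against 406), Ccl24 (166 against 24.4) and Tnf (88.4 against 47.5). It was highest too for the macrophage and haem genes Folr2 (1327 against 484), Lgmn (11280 against 3573) and Hmox1 (3167 against 1131), and for H2-K1 (49620 against 21782), Ly6a (14688 against 5415), Timp1 (2429 against 394), Mmp3 (1662 against 824) and Cdkn1a (7771 against 6130.3). It was lowest for Postn (3921 against 6987), Col8a1 (125 against 264) and Hgf (13 against 45.2). Of the other mice, saline mouse 2 was lowest for Acta2 (1656 against 2842), 2-week mouse 8 was highest for Lrrc15 (575 against 67.4), 2-week mouse 7 was lowest for Lox (355 against 686), and 2-week mouse 1 was lowest for Mdm2 (882 against 1015).

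The effects of bleomycin at 2 and at 4 weeks differed by limma, as a log2 difference of 4 minus 2 weeks, in 24 genes of the text. Matrix and fibroblast genes were higher at 4 weeks, namely Col1a1 (1.01), Col8a1 (1.17), Fn1 (0.79), Lox (0.85), Lrrc15 (2.25) and Sfrp2 (1.4). So were Wif1 (0.74), Igf2 (1.14) and Igfbp3 (0.60) among secreted regulators, Spp1 (0.81) and Trem2 (0.67) among macrophage genes, Myh7 (2.84) and Tnnt1 (1.16) among slow muscle genes, and Cdkn2a (1.84) and Dbp (1.04) among cell cycle and clock genes. The monocyte gene Ly6c2 (-1.72), the neutrophil gene Csf3r (-0.90) and the cytotoxic cell gene Gzma (-1.37) were lower at 4 weeks. So was Chil3 (-1.23) of the alternative activation list. The acute-phase genes Saa1 (-2.36) and Saa3 (-2.03) were lower as well, as were Ly6a (-0.59), Cyp2g1 (-2.16) and Npas2 (-0.65).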

How the results depend on the processing

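The count of genes called at 2 weeks against saline was 2851 and ran from 2587 to 3117 over 12 alternatives of scaling, filter, pseudocount, tool and mice. Without the fold change threshold it was 6063 (2959 higher and 3104 lower), and between 4 and 2 weeks 956 (522 higher and 434 lower) in place of 400. DESeq2 called 248 genes lower at 4 than at 2 weeks in place of 147. Without saline mouse 1 or 2-week mouse 2 the counts ran from 2687 to 2840 (1450 to 1612 higher, 1228 to 1237 lower) and from 310 to 447 between 4 and 2 weeks (191 to 284 higher, 119 to 163 lower), and without both mice 2655 genes were called, 2460 of them among the 2851.

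Same-numbered mice of the groups showed no common deviation, with correlations of -0.139 to 0.177 over 10 pairs and 1 pair above 0.1. These correlations cannot exclude a pairing or a batch that follows the numbers, since the labels give neither. With the replicate number as a block, 2847 genes were called at 2 weeks and 407 between 4 and 2 weeks, and 2831 genes were called with and without it.

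Of 155 genes of the text, 131 were called, and 124 of these kept the call and the direction under all 12 alternatives. The 7 that lost it under at least 1 were Ccl8, Krt6a, Col1a1, Arhgdib, Padi4, Lbp and Plin1, and the cause was not tested. Apart from fits without a mouse, Ccl8 and Krt6a lost it in the fit of only the groups compared (0.74 and 0.91), Krt6a without a filter, Lbp by edgeR (-0.52) and DESeq2 (-0.54), and Plin1 by edgeR (-0.58). Of the genes not called, Cd74 changed sign by edgeR (0.057) and DESeq2 (0.044), H2-Aa without saline mouse 1 (-0.012), 2-week mouse 2 (-0.037) or both (-0.13), and Krt5 without both (-0.015). Depth of 8641894 to 12016214 reads limits genes with a few reads, such as Cxcl2, Saa1 and Mcpt8 in saline mice.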
